A study of Homo sapiens with 6 samples.

Results

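The 10 cytosolic heat shock chaperone genes HSPA1A, HSPA1B, HSPA8, HSPA4, HSPH1, HSP90AA1, HSP90AB1, DNAJB1, HSPB1 and BAG3 were followed in SW480 cells after MPM-1. They were chosen by name from the 12982 genes of the deposited table, and all 10 were found there. SW480 is an established human colorectal adenocarcinoma line, with its genotype labelled WT in every library. The cells received either DMSO, the solvent, or MPM-1 for 24 h, and RNA was sequenced in 3 libraries per treatment. MPM-1 is a fluorescent mitochondrial probe molecule that the sample labels also call WT4, and its dose in this experiment is not given in the sources used here. Nothing states that the 3 libraries of a treatment came from separate cultures, so the p-values measure the spread between these libraries, which may be technical.

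Chaperones bind unfolded proteins and keep them from clumping while they fold. HSP70 proteins take up a client from a J-domain protein, hold it while they bind ADP and let it go once a nucleotide exchange factor replaces the ADP. Some clients, many kinases and steroid receptors among them, are then passed on to HSP90. Several of these genes are known targets of HSF1, the heat shock factor, which binds the heat shock element upstream of them when unfolded proteins accumulate.

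The heat shock element is shown first because words of it occur in front of an annotated start of many of the 10 genes. It is built of short inverted units and was searched as the words GAANNTTC and TTCNNGAA, each of which reads the same on both strands, in the 250 bases before each RefSeq transcript start (GRCh38.p14). All 10 symbols were matched in RefSeq, and 7 of the genes had a word before at least 1 annotated start. Of all 35116 such windows, 11.6% held a word and 0.441% held a run of 3 units, in which overlapping words continue one another. The stretches are printed 5′ to 3′ on the strand of the gene, with the words in capitals.
HSPA1A (chr6:31815421-31815460, plus strand): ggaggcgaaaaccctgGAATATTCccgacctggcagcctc
HSPA1B (chr6:31827617-31827656, plus strand): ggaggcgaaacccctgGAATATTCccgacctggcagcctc
HSPA8 (chr11:123062346-123062374, minus strand): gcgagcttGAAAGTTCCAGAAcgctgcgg
HSPA8 (chr11:123062171-123062199, minus strand): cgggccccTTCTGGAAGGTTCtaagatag
HSP90AA1, start 1 (chr14:102087104-102087133, minus strand): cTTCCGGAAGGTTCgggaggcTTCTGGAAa
HSP90AB1, start 3 (chr6:44247762-44247859, plus strand): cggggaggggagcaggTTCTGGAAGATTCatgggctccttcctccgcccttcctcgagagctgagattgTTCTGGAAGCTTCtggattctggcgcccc
DNAJB1, start 1 (chr19:14518421-14518490, minus strand): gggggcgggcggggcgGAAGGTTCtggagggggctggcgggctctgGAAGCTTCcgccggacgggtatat
HSPB1 (chr7:76302475-76302514, plus strand): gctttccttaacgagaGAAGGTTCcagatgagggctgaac
Runs of 3 units were found for HSPA8 (2 runs), HSP90AA1 (1 run) and HSP90AB1 (2 runs), which encode abundant chaperones of unstressed cells. The HSPA8 and HSP90AA1 stretches lie before a RefSeq start but overlap an exon annotated in GENCODE, and the HSP90AB1 stretch lies before the third of 3 RefSeq starts, 1777 bases from the GENCODE start of the gene, with no word before the others. HSPA1A, HSPA1B and HSPB1 had a single word each, and DNAJB1 had 2 separate words. Neither word was found in the windows of HSPA4, HSPH1 and BAG3, which says only that these letters are not in those windows. A match is a description of the letters and was not taken as a bound site.

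**Figure D1:**
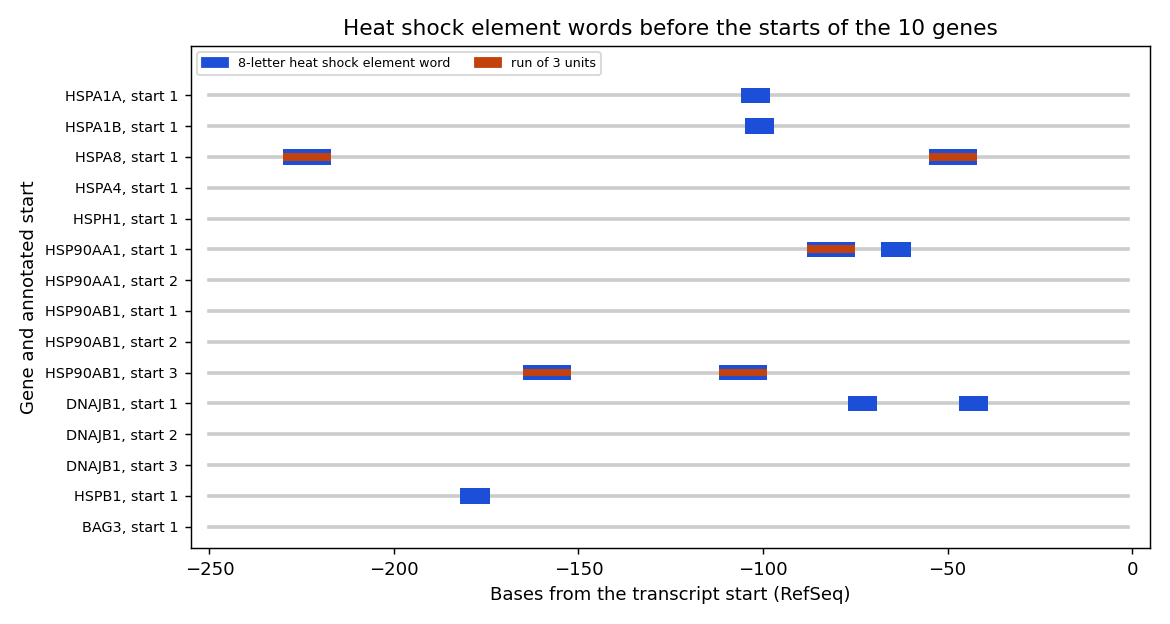
Position of the heat shock element words (blue) and of runs of 3 units (orange) in the 250 bases before each RefSeq start of the 10 genes, in bases from the start, 1 line per annotated start. HSPA8, HSP90AA1 and HSP90AB1 carry the runs, and the lines of HSPA4, HSPH1 and BAG3 are empty.

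Total counts ran from 32095456 to 40269820 in the DMSO libraries and from 31733667 to 35403841 in the MPM-1 libraries. They were expressed as CPM, which puts the libraries on one common size, with edgeR's TMM factors, and MPM-1 was compared with DMSO by the quasi-likelihood test of edgeR, with p adjusted by Benjamini-Hochberg over all 12982 genes. Means are given ± SD over 3 libraries (n = 3). A gene is said to have risen or fallen where its adjusted p was under 0.05. None of the 10 genes passed the stricter rule of an adjusted p under 0.01 with a log2 change of 1 or more in either direction. That rule called 5.58% of all genes higher and 8.75% lower. Of the 10 genes, 0 combined such a fold with an unadjusted p under 0.05 in edgeR (16.2% of all genes did), 0 passed the stricter rule in DESeq2 (15.0% of all genes), and 6 had an unadjusted p under 0.05 at any fold in edgeR (61.3% of all genes). At an adjusted p under 0.05, 2 genes rose (HSP90AB1 and DNAJB1), 3 fell (HSPA8, HSP90AA1 and HSPB1) and 5 did neither. The same rule called 27.7% of all genes higher and 28.8% lower, so the share of the 10 genes called was close to the share of the table. Higher calls numbered 0 when any 1 DMSO library or MPM-1 replicate 1 was left out and 1 without MPM-1 replicate 3, and lower calls numbered 5 without MPM-1 replicate 1. The 3 MPM-1 libraries lay above all 3 DMSO libraries in 2 of the 10 genes and below them in 4, against 31.0% and 33.3% of all genes. The median log2 fold change of the 10 genes was -0.01, and that of all genes was -0.03.

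**Figure D2:**
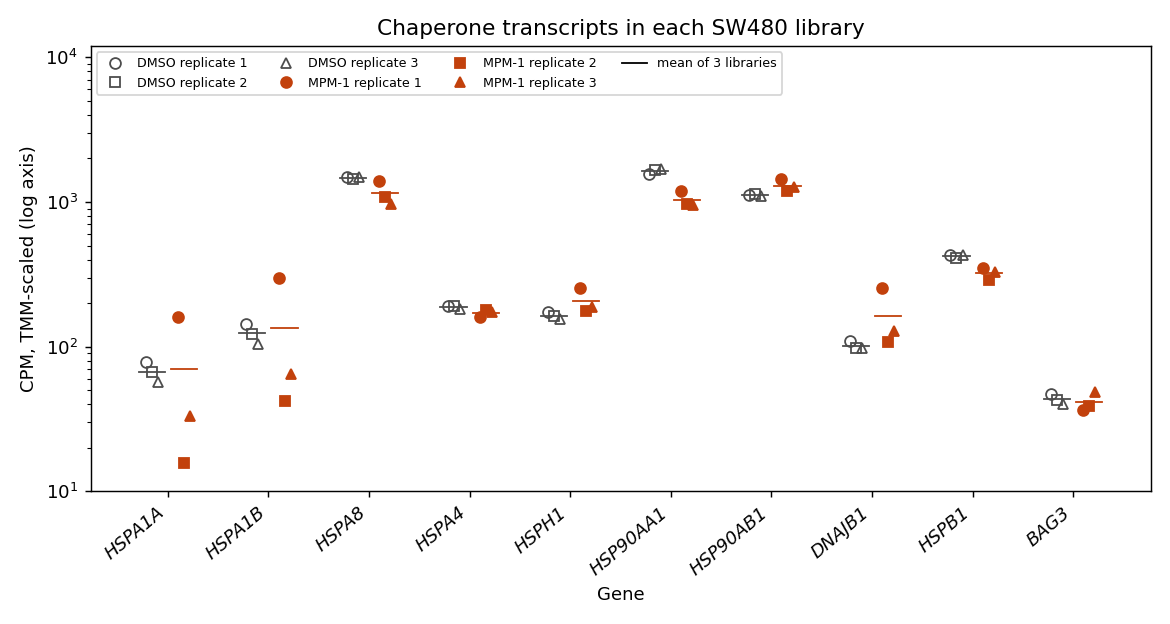
CPM (TMM-scaled, log axis) of the 10 chaperone genes in each library, with DMSO open and MPM-1 filled, symbols for replicates and a line at the mean of 3 libraries. HSPA1A, HSPA1B and DNAJB1 spread widely after MPM-1, with replicate 1 on top, while HSP90AA1 and HSPB1 lie below every DMSO library.

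HSPA1A and HSPA1B, the stress-inducible HSP70 genes, differed more among the MPM-1 libraries than between the treatments. HSPA1A (ENSG00000204389, chromosome 6, 31815464 to 31817946, 1 exon) had 77.7, 66.7 and 57.0 CPM in DMSO replicates 1 to 3. After MPM-1 it had 160, 15.7 and 33.4 CPM. The first MPM-1 library was thus above every DMSO library and the other two were below every one, so the highest was 10.2 times the lowest, against 1.36 times among the DMSO libraries. HSPA1B (ENSG00000204388, chromosome 6, 31827735 to 31830255, 1 exon) had 144, 121 and 104.5 CPM after DMSO and 296, 41.9 and 65.0 CPM after MPM-1. It showed the same order of libraries, with ranges of 7.07 times after MPM-1 and 1.38 times after DMSO.

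The means of the HSPA1 pair gave no call in either direction. HSPA1A was at 67.1 ± 10.4 CPM after DMSO and 69.8 ± 78.9 CPM after MPM-1, and the log2 fold change was 0.06 with a 95% interval of -1.38 to 1.49 (adjusted p = 0.949, edgeR). HSPA1B was at 123 ± 19.8 CPM after DMSO and 134 ± 141 CPM after MPM-1, and the log2 fold change was 0.12 with a standard error of 0.57 (adjusted p = 0.870, edgeR). The interval leaves room for a fall or a rise past the fold of the stricter rule. Without MPM-1 replicate 1, both genes passed the stricter rule as lower, HSPA1A with a log2 fold change of -1.43 (adjusted p = 0.0018, edgeR) and HSPA1B with -1.19 (adjusted p = 0.000779, edgeR). Without MPM-1 replicate 2 the values were 0.55 and 0.58, and without MPM-1 replicate 3 they were 0.42 and 0.48. Both log2 fold changes were also negative, without a call, when libraries were scaled by total count alone (-0.112 and -0.0426). They were -0.751 and -0.544 when log2(FPKM + 0.1) was tested, also without a call. That test averages logs of widely spread libraries. Mean FPKM of HSPA1A itself was 27.55 ± 3.80 after DMSO and 25.5 ± 28.5 after MPM-1.

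HSPA1A and HSPA1B are near-identical copies, and reads can be split between them by the authors' counting. Of the 100-base words of HSPA1A transcripts in GENCODE release 29, 69.9% also occur in HSPA1B transcripts. HSPA1B also overlaps AL671762.1 on the same strand. HSPA1A took 35.4% to 35.8% of the summed FPKM (the authors' fragment values scaled for length and library size) of the pair in DMSO libraries, and 35.5%, 27.6% and 34.3% in MPM-1 libraries. The spread after MPM-1 was present in the sum as well, at 456, 57.6 and 98.3 CPM, against 222, 188 and 161 CPM after DMSO.

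HSPA8, the constitutive HSP70 often called HSC70, fell. HSPA8 (ENSG00000109971, chromosome 11, 123057489 to 123063230) had 1492, 1431 and 1492 CPM after DMSO and 1387, 1090 and 974 CPM after MPM-1. All 3 MPM-1 libraries were below all 3 DMSO libraries, and replicate 1 was nearest to them. The mean went from 1472 ± 35.3 to 1150 ± 213 CPM, and the log2 fold change was -0.36 with a standard error of 0.11 (adjusted p = 0.0238, edgeR). The adjusted p was 0.058 without DMSO replicate 1, 0.061 without DMSO replicate 3, 0.092 without MPM-1 replicate 2 and 0.12 without MPM-1 replicate 3. Without MPM-1 replicate 1 the log2 fold change was -0.50 (adjusted p = 0.000726, edgeR). HSPA8 holds the small nucleolar RNA genes SNORD14C, SNORD14D and SNORD14E on its own strand.

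HSPA4 and HSPH1 encode members of the HSP110 branch, which release ADP from HSP70, and neither passed the test. HSPA4 (ENSG00000170606, chromosome 5, 133051962 to 133106449, overlapped by AC113410.3 on the same strand) had 190, 192 and 182 CPM after DMSO and 160, 180 and 174 CPM after MPM-1. The groups did not overlap, and the log2 fold change was -0.14 with a 95% interval of -0.30 to 0.03 (adjusted p = 0.147, edgeR). HSPA4 passed the test as lower when libraries were scaled by total count alone, at -0.28. HSPH1 (ENSG00000120694, chromosome 13, 31134974 to 31162388) had 173, 164 and 155 CPM after DMSO and 253, 176 and 188 CPM after MPM-1. Every MPM-1 library was above every DMSO library, again with replicate 1 on top. The log2 fold change of HSPH1 was 0.33 with a standard error of 0.13 (adjusted p = 0.0519, edgeR), and without MPM-1 replicate 2 it was 0.45 (adjusted p = 0.0136, edgeR). HSPH1 also passed in the test of DESeq2, at 0.35.

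The log2 fold changes of the cytosolic HSP90 genes had opposite signs, though the rise of HSP90AB1 was small and its call depended on the scaling. HSP90AA1, the stress-responsive alpha form, fell, and it had the smallest adjusted p of the 10 genes. HSP90AA1 (ENSG00000080824, chromosome 14, 102080738 to 102139699, overlapped by WDR20 on the other strand) had 1554, 1659 and 1684 CPM after DMSO and 1184, 965 and 951 CPM after MPM-1. All MPM-1 libraries were below all DMSO libraries by more than the spread within either treatment. The mean went from 1632 ± 68.9 to 1033 ± 131 CPM, 1.58-fold lower, or -0.66 on the log2 scale with a 95% interval of -0.86 to -0.46 (adjusted p = 0.000244, edgeR). With 1 library left out, its log2 fold change stayed between -0.75 and -0.59 and it was called each time.

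HSP90AB1, the constitutive beta form, rose slightly. HSP90AB1 (ENSG00000096384, chromosome 6, 44246166 to 44253888) had 1114, 1141 and 1092 CPM after DMSO and 1432, 1200 and 1264 CPM after MPM-1. The groups did not overlap in CPM, although they did in FPKM, where DMSO libraries ranged from 431 to 458 and MPM-1 libraries from 436 to 501. The mean CPM went from 1116 ± 24.8 to 1298 ± 120, and the log2 fold change was 0.22 with a standard error of 0.08 (adjusted p = 0.0337, edgeR). The call was kept only without MPM-1 replicate 2 (log2 fold change 0.30, adjusted p = 0.0128, edgeR) and was lost when any other library was left out, with log2 fold changes from 0.16 upward. Scaling by total count alone gave 0.07 and no call.

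The proportion of the HSP90 genes within a library does not depend on how libraries are scaled. HSP90AA1 made up 51.6%, 52.5% and 54.1% of the summed FPKM of HSP90AA1 and HSP90AB1 after DMSO, and 39.1%, 37.9% and 36.5% after MPM-1. The alpha form was thus the larger in every DMSO library and the smaller in every MPM-1 library. The ratio of HSP90AA1 to HSP90AB1 was 1.06, 1.11 and 1.18 after DMSO and 0.643, 0.610 and 0.575 after MPM-1, a difference of -0.87 in mean log2 ratio (exact permutation test, two-sided, p = 0.1, 0.3 adjusted over 3 ratios). With 3 libraries against 3 this test cannot go below 0.1. Leaving out any 1 library kept the difference between -0.91 and -0.83.

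The ratio of HSPA1A plus HSPA1B to HSPA8, the inducible over the constitutive HSP70 genes, followed the spread of the pair. It was 0.134, 0.124 and 0.1 after DMSO and 0.309, 0.0505 and 0.0953 after MPM-1 (difference in mean log2 ratio -0.05, exact permutation test, two-sided, p = 0.9). Replicate 1 lay above and the other MPM-1 libraries below the DMSO range. The ratio of HSPH1 to HSPA4 was 0.992, 0.947 and 0.886 after DMSO and 1.80, 0.991 and 1.09 after MPM-1 (difference in mean log2 ratio 0.41, exact permutation test, two-sided, p = 0.2, 0.3 adjusted over 3 ratios). Here the second MPM-1 library fell within the DMSO range.

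**Figure D3:**
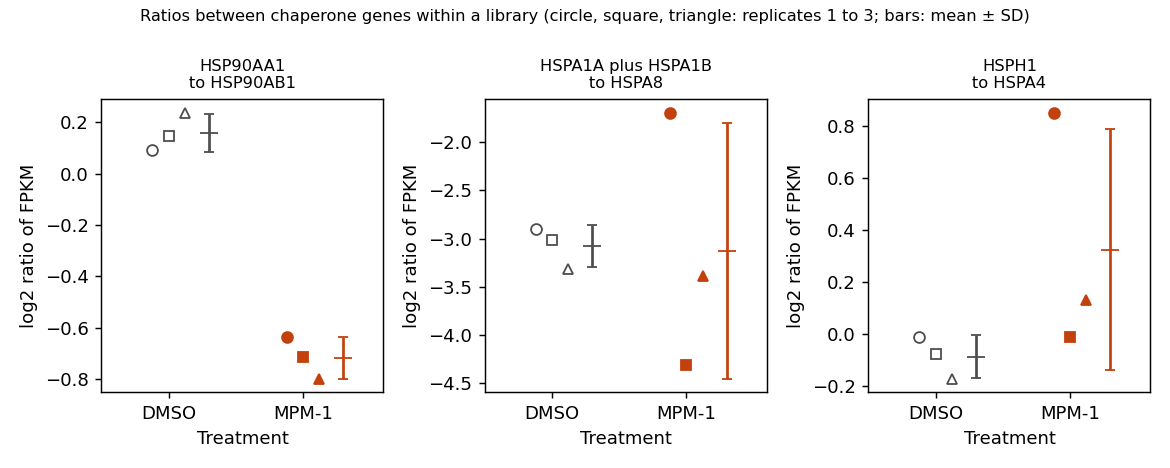
Log2 ratio of FPKM within each library for HSP90AA1 to HSP90AB1, HSPA1A plus HSPA1B to HSPA8, and HSPH1 to HSPA4, after DMSO (open) and MPM-1 (filled), with mean ± SD of 3 libraries. The HSP90 ratio separates the treatments with little spread, at a mean of 0.158 after DMSO and -0.716 after MPM-1, while in both other panels MPM-1 replicate 1 is the highest point.

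DNAJB1, the J-domain partner that hands clients to inducible HSP70, rose on average but unevenly. DNAJB1 (ENSG00000132002, chromosome 19, 14514770 to 14529770) had 109, 97.4 and 97.5 CPM after DMSO and 254, 108 and 128 CPM after MPM-1. The second MPM-1 library was just below the first DMSO library, and the first was far above every DMSO library. The mean went from 101 ± 6.86 to 163 ± 78.8 CPM, and the log2 fold change was 0.69 with a standard error of 0.26 (adjusted p = 0.0468, edgeR). Without MPM-1 replicate 1 it was 0.24 (adjusted p = 0.079, edgeR), and the call was also lost without any 1 of the DMSO libraries (adjusted p of 0.08 to 0.12). It was lost as well in the test of DESeq2 (0.71) and with scaling by total count alone (0.53). DNAJB1 overlaps TECR and MIR639 on the other strand, and strand use in the counting is not given in the sources used here.

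HSPB1, the small heat shock protein HSP27 that holds unfolded proteins without ATP, fell. HSPB1 (ENSG00000106211, chromosome 7, 76302544 to 76304295) had 428, 412.5 and 432 CPM after DMSO and 348, 287 and 327 CPM after MPM-1. The treatments did not overlap. The mean went from 424 ± 10.1 to 320 ± 30.9 CPM, and the log2 fold change was -0.40 with a standard error of 0.08 (adjusted p = 0.00252, edgeR), and it was called with any 1 library left out (-0.45 to -0.31). Of its 100-base words, 5.06% also occur in the pseudogene HSPB1P1.

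BAG3, a nucleotide exchange factor that links HSP70 to small heat shock proteins and autophagy, did not pass the test. BAG3 (ENSG00000151929, chromosome 10, 119651370 to 119677819) had 47.3, 42.7 and 40.1 CPM after DMSO and 36.4, 38.9 and 48.2 CPM after MPM-1. The treatments overlapped, and the log2 fold change was -0.08 with a standard error of 0.12 (adjusted p = 0.606, edgeR). Here MPM-1 replicate 1 was the lowest of its group, unlike in the HSPA1 pair and DNAJB1.

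**Figure D4:**
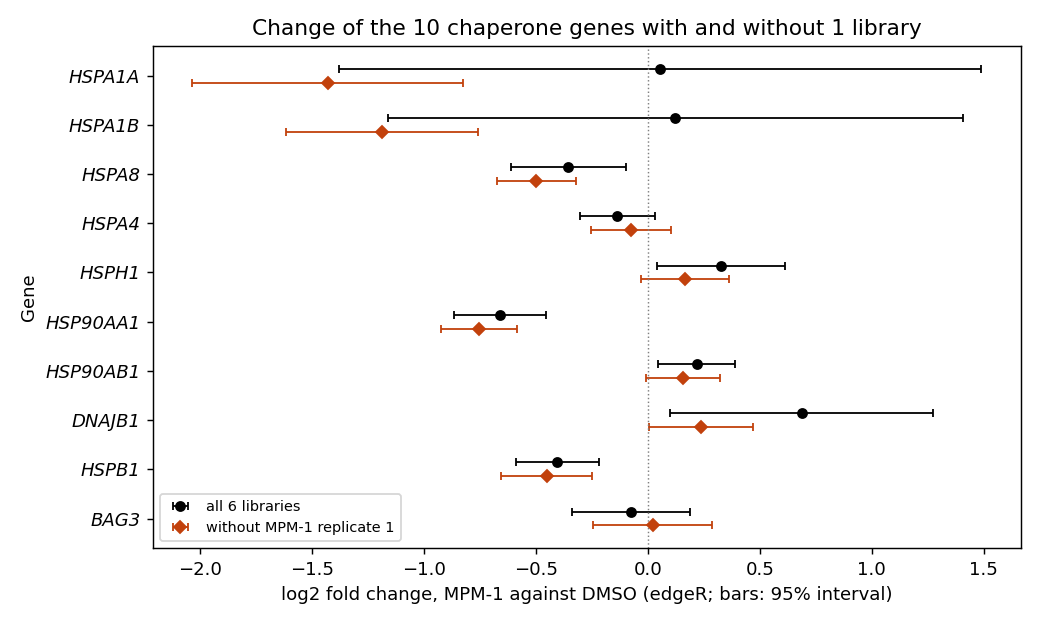
Log2 fold change (MPM-1 against DMSO, edgeR) of the 10 chaperone genes with its 95% interval, from all 6 libraries (black) and without MPM-1 replicate 1 (orange). HSPA1A and HSPA1B move from intervals that span 0 to -1.43 and -1.19, DNAJB1 moves toward 0, and HSP90AA1 and HSPB1 keep their place.

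MPM-1 replicate 1 stood apart from the other MPM-1 libraries in some of the 10 genes and not in others. Its log2 CPM was above the mean of replicates 2 and 3 by 2.81 in HSPA1A, 2.50 in HSPA1B and 1.11 in DNAJB1. Among the 8355 genes with a mean of at least 500 counts, HSPA1A and HSPA1B had the largest such differences of all. Over all 12982 genes, 17 differed more than HSPA1A and 23 more than HSPA1B. The difference was smaller in HSPH1 (0.48), HSPA8 (0.43), HSP90AA1 (0.31), HSP90AB1 (0.22) and HSPB1 (0.18), and negative in HSPA4 (-0.14) and BAG3 (-0.25). The median over all genes was 0.00235. MPM-1 replicate 2 also stood apart in the HSPA1 pair. Its log2 CPM minus the mean of replicates 1 and 3 was -2.22 in HSPA1A and -1.73 in HSPA1B. Of all 12982 genes, 38 and 52 had a lower value in that library. The SD of log2 CPM within MPM-1 was 1.71 for HSPA1A, 1.48 for HSPA1B and 0.65 for DNAJB1, against a median of 0.143 over all genes. Within DMSO, the same genes had SDs of 0.22, 0.23 and 0.10, against a median of 0.13. What set replicate 1 apart in these genes was not tested.

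On the FPKM scale, which is per transcript length and allows genes to be compared, the 10 genes formed an abundant and a less abundant group. After DMSO, HSPA8 was highest at 649 ± 19.7 FPKM, followed by HSP90AA1 at 494 ± 29.9, HSP90AB1 at 442 ± 14.0 and HSPB1 at 440 ± 33.4. The range of HSPB1 (420 to 478.5 FPKM) overlapped those of HSP90AB1 and of HSP90AA1 (459 to 515 FPKM). HSP90AA1 lay wholly above HSP90AB1, and HSPA8 wholly above all of these. The rest were about an order of magnitude lower, from HSPA1B at 49.8 ± 7.16 and DNAJB1 at 45.9 ± 2.33 through HSPA4, HSPH1 and HSPA1A to BAG3 at 17.3 ± 1.15 FPKM. Among these, HSPA1B could not be separated from DNAJB1, nor HSPA4 from HSPH1.

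After MPM-1 the order within the abundant group changed, and the less abundant genes could be ordered only in part. HSP90AB1 was at 462.5 ± 34.1 and HSPA8 at 444 ± 78.4 FPKM, with overlapping ranges, ahead of HSPB1 at 289 ± 21.5 and HSP90AA1 at 282 ± 34.6 FPKM, which also overlapped. HSP90AA1 thus lay wholly above HSP90AB1 after DMSO and wholly below it after MPM-1. From DNAJB1 at 66.4 FPKM down to BAG3 at 14.9 FPKM, each gene's range overlapped that of the next, although DNAJB1 (44.9 to 102 FPKM) lay wholly above HSPA4 (29.9 to 34.8 FPKM), and DNAJB1, HSPH1 and HSPA4 lay wholly above BAG3 (12.95 to 17.45 FPKM). All 10 genes together took 0.548%, 0.571% and 0.566% of the counts of the DMSO libraries and 0.513%, 0.398% and 0.394% of those of the MPM-1 libraries.

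Transcripts of most measured genes in the list of heat shock factors and their binding proteins rose after MPM-1, which does not measure factor activity. Only 2 of 6 were called higher when libraries were scaled by total count alone, a setting that called 19.9% of all genes higher and 37.5% lower. For these and the further lists, changes are log2 fold changes, read against the shares of all genes called given above. Of 6 measured genes of the heat shock factors and their binding proteins, 4 rose, 1 fell and 1 did neither, with a median log2 fold change of 0.42, against -0.03 over all genes. HSF1, the main activator of the heat shock response, had 77.7, 68.5 and 72.3 CPM after DMSO and 119, 94.6 and 111 CPM after MPM-1. It rose by 0.57 with a standard error of 0.10 (adjusted p = 0.000863, edgeR). HSF2, a related factor active in development, rose by 0.27 (adjusted p = 0.0385, edgeR), although its groups overlapped in FPKM. HSF4, best known from the lens, rose by 0.71 from a low level of 6.14 CPM (adjusted p = 0.041, edgeR). Its groups overlapped, at 5.79, 4.63 and 8.01 CPM after DMSO and 13.1, 9.625 and 7.42 CPM after MPM-1. HSBP1L1, a paralog of the factor-binding HSBP1, rose by 0.79. HSBP1, which binds trimers of HSF1, fell by 0.26. Leaving out the first or second DMSO library or the first MPM-1 library left 2 of the 6 called higher, and leaving out the third DMSO library, or the first or the third MPM-1 library, left HSBP1 without a call.

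Other genes counted as HSF1 targets did not move together. Many of them, such as HSPE1, DNAJB4, STIP1 and AHSA1, are counted again in the lists below, so the lists are not separate observations. Of 20 measured, 4 rose, 7 fell and 9 did neither, with a median log2 fold change of -0.19. The number that fell was 11 with scaling by total count alone, 4 with the size factors of DESeq2, 4 without DMSO replicate 1, and 3 without DMSO replicate 2 or without MPM-1 replicate 3. ZFAND2A, an arsenite-inducible partner of the proteasome, rose by 1.88, and DEDD2 by 0.88. HSPE1, the mitochondrial co-chaperonin, fell with a log2 fold change of -0.95, IER5, a cofactor of HSF1, with -0.73, and DNAJB4, a J-domain protein, with -0.53. HSPA6, the most strictly inducible HSP70 gene, and CRYAB were not among the genes of the table and were not analysed here. In MPM-1 replicate 1, 9 of these 20 targets were above the mean of replicates 2 and 3, and the median difference was -0.02 on the log2 scale. Of all 12982 genes, 6555 were above that mean, with a median difference of 0.00235. The list as a whole thus lay near all genes and did not show the excess of HSPA1A, HSPA1B and DNAJB1 in that library. It leaves out the 10 genes themselves, and what the difference means for HSF1 was not tested.

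Relatives of the 10 genes were counted in the cytosol and in organelles, and the difference between these lists was not tested. In the cytosol, 0 of 6 measured rows of HSP70 and HSP110 genes rose, 2 fell and 4 did neither (median log2 fold change -0.42). HSPA2, an HSP70 gene of the testis, went from 1.76 ± 0.292 to 0.215 ± 0.119 CPM (log2 fold change -3.03), and HSPA12A, a distant relative, fell by 0.57. Of 8 genes of HSP70, HSP90 and HSP60 type in the endoplasmic reticulum (ER) and mitochondria, 5 rose, 2 fell and 1 did neither (median log2 fold change 0.75). HSPA5, the HSP70 of the ER known as BiP, had 1618, 1179 and 1189 CPM after DMSO and 8742, 4785 and 6477 CPM after MPM-1. It rose by 2.33 with a standard error of 0.21 (adjusted p = 1.74e-05, edgeR). HYOU1, its exchange factor, rose by 1.52, HSPA13 by 1.25 and HSP90B1, the HSP90 of the ER, by 0.53. The ER members of the list thus all rose. Of the mitochondrial members, only HSPA9, the mitochondrial HSP70, was higher, by 0.96. HSPE1 was lower with a log2 fold change of -0.95 and TRAP1, the mitochondrial HSP90, with -0.87. HSPD1, the mitochondrial HSP60, did neither, at -0.17 (adjusted p = 0.0522, edgeR).

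**Figure D5:**
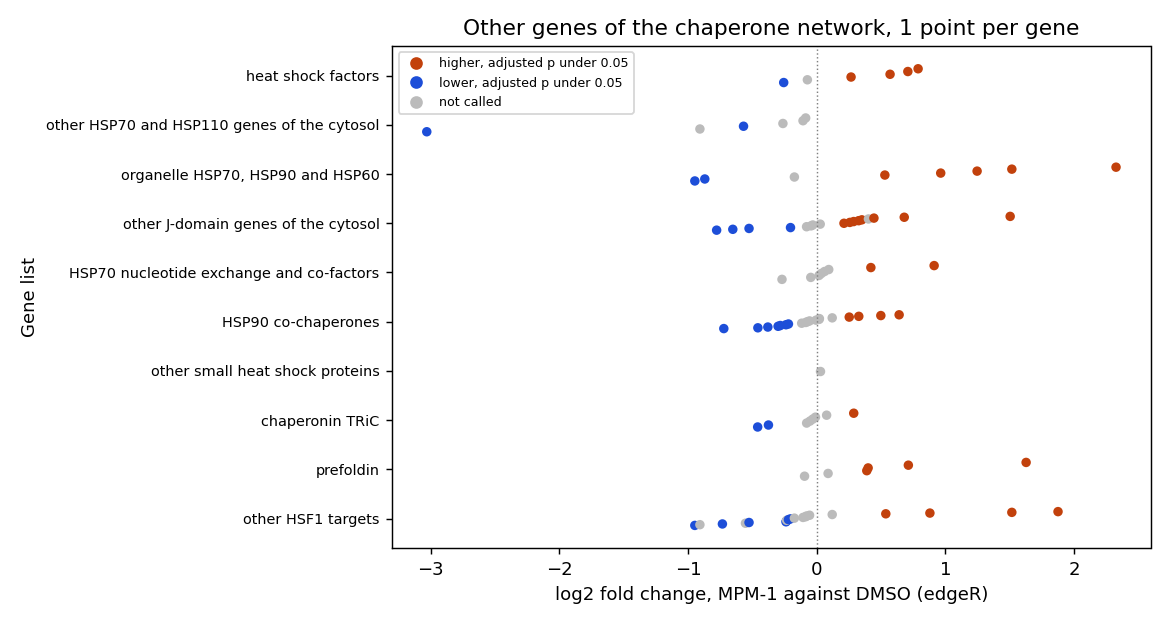
Log2 fold change (MPM-1 against DMSO, edgeR) of each measured gene in 10 lists of the chaperone network, colored by direction where the adjusted p was under 0.05. The lists of cytosolic partners spread on both sides of 0, the organelle list reaches from -0.95 to 2.33, and 4 of 6 prefoldin genes are higher.

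Partners that deliver clients to HSP70 or release them moved in both directions. Of 17 other J-domain genes of the cytosol, 8 rose, 4 fell and 5 did neither (median log2 fold change 0.21), while with scaling by total count alone 4 were called higher and 4 lower, against 19.9% and 37.5% of all genes. Without DMSO replicate 2 or without MPM-1 replicate 3 there were 5 higher and 2 lower, and without DMSO replicate 3 or MPM-1 replicate 2 there were also 2 lower. DNAJB2, a neuronal J-domain protein, rose by 1.5, DNAJC2, which works at the ribosome, by 0.68 and DNAJA2 by 0.44. DNAJC6, the clathrin-uncoating auxilin, fell with a log2 fold change of -0.65 and DNAJB4 with -0.53. Of 8 HSP70 nucleotide exchange genes and co-factors, 2 rose and 6 did neither (median 0.05), and 1 was called lower without DMSO replicate 3. BAG1, an exchange factor, rose by 0.91 and BAG6, which handles stray membrane proteins, by 0.42.

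Co-chaperones of HSP90 moved in both directions, with more called lower than higher. Of 19, 4 rose, 7 fell and 8 did neither (median log2 fold change -0.07). CDC37, which brings kinases to HSP90, rose from 219 ± 9.22 to 341 ± 13.4 CPM, and the log2 fold change was 0.64. Its relative CDC37L1 rose by 0.50 and RPAP3 by 0.33. PIH1D1, which works with RPAP3 in the R2TP complex, fell with a log2 fold change of -0.72 and FKBP5, an immunophilin, with -0.46. AHSA1 and STIP1, an activator of the HSP90 ATPase and the adaptor between HSP70 and HSP90, fell with log2 fold changes of -0.24 and -0.22. With scaling by total count alone, 1 of the 19 was called higher and 11 lower, against 19.9% and 37.5% of all genes, and without DMSO replicate 2 or without MPM-1 replicate 3 there were 2 higher and 3 lower (without DMSO replicate 3, 2 higher).

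The chaperonin TRiC is the ring that folds actin and tubulin, and prefoldin passes clients to it. Of 8 TRiC subunits, 1 rose (CCT2, 0.29), 2 fell (CCT7, -0.46, and CCT8, -0.37) and 5 did neither (median log2 fold change -0.04). Of 6 prefoldin subunits, 4 rose and 2 did neither (median log2 fold change 0.40). PFDN2 went from 105 ± 11.8 to 325 ± 32.3 CPM (log2 fold change 1.63), PFDN1 rose by 0.71 and PFDN4 by 0.40. HSPB11, the one other small heat shock gene in the table, had a log2 fold change of 0.03 (adjusted p = 0.826, edgeR).

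The libraries carried the markers of an epithelial line. All 8 epithelial markers were in the table, EPCAM at 638 to 733 CPM in every library and KRT8 at 3877 CPM or more, while 6 of 7 markers of blood, vessel, connective tissue and liver cells were not among its genes. The seventh, COL1A1, was at 2.67 to 3.34 CPM after DMSO and 0.197 to 1.20 CPM after MPM-1. Of the epithelial markers, 4 rose and 3 fell, among them the intestinal genes CDX2 (log2 fold change -2.20) and KRT20 (-2.03), and whether this bears on the chaperone genes was not tested. In bulk RNA, fewer cells with a transcript and less transcript per cell cannot be told apart.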

How the data were processed

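SW480 cells were exposed to DMSO or MPM-1 for 24 h and RNA was sequenced in 3 libraries of each, grouped by the sample labels. The authors deposited 1 table with, per gene and library, the count (whole numbers, not normalized) and the FPKM (scaled by the authors for length and library size). Its columns of the authors' log2 fold change and FDR (an adjusted p-value) were not used. The submitters' processing notes name HISAT2, DESeq2 and the mouse build mm10, while the deposited identifiers are human. Versions, the counting and strand use are not given in the sources used here.

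Counts were tested with edgeR 4.0.16 (TMM, quasi-likelihood, Benjamini-Hochberg over 12982 genes, no covariates) in R 4.3.3, and the test was tried on simulated data. Genes were called at an adjusted p under 0.05, or under 0.01 with a log2 change of 1 or more in either direction. Log2 CPM used a prior count of 2. Ratios of FPKM were compared by exact permutation (scipy 1.17.1). Positions came from GENCODE release 29 (GRCh38), where all 12127 Ensembl identifiers of the table were found, and sequences from RefSeq (GRCh38.p14). Libraries of a treatment were not duplicates of each other. The depth leaves the 10 genes with at least 483 counts in every library, so the spread between libraries and not counting error limits the comparisons.

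The 10 genes, the lists, written from general knowledge, and the tests were chosen with earlier results of these data known. The text names all 10 genes, HSF1 and HSF2, and in each list the 3 largest rises and falls among called genes. A few genes that this rule names are not reported here. HSPA9, TRAP1, HSPD1, HSP90B1, AHSA1, STIP1, HSPB11 and the genes listed as overlapping or as markers were named beyond that rule after their values were seen. The alternatives were DESeq2 1.42.0 (its size factors and its test), limma 3.58.1 on log2(FPKM + 0.1) or log2(FPKM + 1) for genes whose mean reached 1 FPKM or for all genes, only genes whose mean reached 50 counts, scaling by library size alone, the replicate number as a block and each library left out. On the log2(FPKM + pseudocount) scale a fold change understates the change of low genes. Robust estimation in edgeR was added after seeing the data.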

Additional observations from a re-analysis of the deposited data

How the results depend on the processing

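The direction and the call of HSP90AA1, HSPA8, HSPB1 and BAG3 were the same under all settings that kept the 6 libraries. With 1 library left out, the log2 fold change ranged from -1.43 to 0.554 for HSPA1A, -1.19 to 0.576 for HSPA1B, -0.497 to -0.232 for HSPA8, -0.158 to -0.0744 for HSPA4, 0.166 to 0.452 for HSPH1, -0.754 to -0.586 for HSP90AA1, 0.158 to 0.298 for HSP90AB1, 0.238 to 0.937 for DNAJB1, -0.451 to -0.305 for HSPB1 and -0.189 to 0.0213 for BAG3. Of the 10 genes, 0 to 2 then passed the stricter rule as lower, and at an adjusted p under 0.05 there were 0 to 3 higher and 2 to 5 lower. The 2 genes were HSPA1A and HSPA1B, without MPM-1 replicate 1. The difference in log2 ratio then ranged from -0.773 to 0.534 for HSPA1A plus HSPA1B to HSPA8 and from 0.147 to 0.579 for HSPH1 to HSPA4.

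HSPA1A and HSPA1B changed sign with scaling by library size alone (-0.112 and -0.0426), with limma on log2(FPKM + 0.1) with or without the filter (-0.751 and -0.544), with limma on log2(FPKM + 1) (-0.689 and -0.521) and with the replicate number as a block (-0.581 and -0.398), in each case without a call. Scaling by library size alone moved the median over all genes (log2) from -0.026 to -0.18, and limma on FPKM moved it to between -0.17 and -0.13. The share of calls that were higher fell with them, from 49.0% to between 34.7% and 36.7% at an adjusted p under 0.05, and from 39.0% to between 26.8% and 32.9% under the stricter rule. Under library size alone and limma on log2(FPKM + 0.1) and log2(FPKM + 1), HSPA4 was called lower (-0.285, -0.289 and -0.282) and HSP90AB1 was no longer called (0.0665, 0.0633 and 0.0632), nor was DNAJB1 (0.53, 0.434 and 0.428), so 0 of the 10 genes were called higher. DNAJB1 was also not called by the test of DESeq2 (0.71) or with robust estimation in edgeR (0.688), and HSPH1 was called higher with the size factors or the test of DESeq2 (0.348), with robust estimation (0.327) and with the block (0.31).

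Same-numbered libraries did not deviate together (correlations of 0.0214, 0.114 and -0.0737), and not every library correlated best with its own number, so the numbers were not read as pairs. The block on the replicate number moved the calls of all genes to 712 higher and 1120 lower under the stricter rule and to 3475 and 3642 at an adjusted p under 0.05, from 725, 1136, 3596 and 3740.

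Counts in the lists moved with the scaling and with single libraries. With library size alone, the heat shock factors had 2 genes higher, other cytosolic HSP70 and HSP110 genes 4 lower, J-domain genes 4 higher, HSP70 co-factors 1 lower, HSP90 co-chaperones 1 higher and 11 lower, TRiC 0 higher and 4 lower, and HSF1 targets 11 lower. With limma on FPKM, the heat shock factors had 2 higher, J-domain genes 3 higher and, with the filter, 2 lower, HSP70 co-factors 1 lower, and TRiC 0 higher and 4 lower. A mean of at least 50 counts left 1 cytosolic HSP70 gene lower and called 1 HSP70 co-factor lower, as did robust estimation. The block gave 2 J-domain genes lower, and the size factors of DESeq2 gave 4 HSF1 targets lower. With 1 library left out, the heat shock factors had 2 to 4 higher and 0 to 1 lower, cytosolic HSP70 genes 2 to 3 lower, organelle genes 2 to 3 lower, J-domain genes 5 to 8 higher and 2 to 3 lower, HSP70 co-factors 0 to 1 lower, HSP90 co-chaperones 2 to 4 higher and 3 to 7 lower, and HSF1 targets 3 to 6 lower. The cause of these changes was not tested. With 3 libraries per treatment and 1 that stood apart in HSPA1A and HSPA1B, their direction after MPM-1 could not be settled.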

Other observations

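Among the 8355 genes with a mean of at least 500 counts, those with the largest excess of MPM-1 replicate 1 over the mean of replicates 2 and 3 were examined after the spread of HSPA1A and HSPA1B had been seen. After that pair came AC023055.1 (2.44 on the log2 scale), BEST1 (1.88), GPD2 (1.72), ERCC5 (1.47) and NPIPB12 (1.45), and none of them encodes a chaperone. The mean is of log2 CPM, so 1 low library among replicates 2 and 3 also raises the difference. Replicate 1 was not the highest MPM-1 library in AC023055.1 (11.7, 0.163 and 21.35 CPM) or ERCC5 (53.4, 69.4 and 5.27 CPM). In GPD2 (30.1, 24.65 and 3.34 CPM) and NPIPB12 (23.1, 4.16 and 17.1 CPM) it was highest, with 1 other library far lower. In AC023055.1, BEST1 and GPD2 the DMSO libraries also differed widely among themselves, for example from 7.76 to 277 CPM in BEST1, unlike in HSPA1A, where they ranged from 57.0 to 77.7 CPM. The next gene, PER1, a repressor of the circadian clock, had a pattern like that of DNAJB1, with 51.1, 42.6 and 42.7 CPM after DMSO and 198, 58.5 and 93.6 CPM after MPM-1. In PER1 as in HSPA1A, HSPA1B and DNAJB1, replicate 1 was the highest and replicate 2 the lowest of the MPM-1 libraries. PER1 was picked by its excess in replicate 1, which favors genes with that library on top. HSPA5, the ER chaperone, had the same order of MPM-1 libraries (8742, 4785 and 6477 CPM), and in HSPA5 and PER1 each MPM-1 library was above every DMSO library. HSPH1, HSP90AB1, HSPB1 and HSF1 had this order too, while HSPA8, HSP90AA1, HSPA4 and BAG3 did not. The share of all genes with this order was not counted, so it was not read as particular to any of these genes.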
